A study of Homo sapiens with 3 samples.

Results

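The genes described here are the matrix metalloproteinases (MMP), the ADAMTS metalloproteinases and the tissue inhibitors of metalloproteinases (TIMP) in floating spheres of the human osteosarcoma cell line MNNG/HOS. All named genes whose symbol is MMP, ADAMTS or TIMP followed by a number were taken, and the ADAMTSL genes were left out. This gave 36 genes, 17 MMP, 16 ADAMTS and 3 TIMP, of the 14836 genes that could be named. They are read by 39 transcript features, and 33 of the 36 genes have 1 feature. MMP3, MMP8, MMP12, MMP19, MMP23A, MMP23B, MMP26, ADAMTS15, ADAMTS18, ADAMTS20 and TIMP4 were not analysed here.

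MMPs are secreted or membrane-anchored zinc endopeptidases that are made as inactive precursors and together can degrade most proteins of the extracellular matrix. ADAMTS enzymes are secreted relatives with thrombospondin repeats, which cleave proteoglycans, procollagens and a few other substrates. TIMPs bind the active site of MMPs and block it. In bone and in osteosarcoma, the balance of collagenases, gelatinases and TIMPs bears on matrix turnover and on invasion.

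The study compared 3 sphere cultures, each hybridised to 1 NimbleGen one-colour (Cy3) array. MNNG/HOS is a chemically transformed derivative of the osteosarcoma line HOS. All 3 cultures were grown in DMEM/F12 medium without serum, and the spheres in suspension were collected after 5 days. The first culture received TGF-beta1 at 4 ng/mL, another grew in hypoxia (the labels give no oxygen level), and the last was untreated. TGF-beta1 is a cytokine that acts through SMAD proteins, and hypoxia stabilises the HIF transcription factors. All values come from this 1 cell line. With 1 array per condition there is no replicate error, no test between conditions is possible, and "higher" and "lower" describe these 3 arrays. In total RNA of a culture, fewer cells that express a gene and less RNA per cell cannot be told apart.

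The values are intensities on a linear scale, with no detection calls. No value lies below 50, and the median gene value was 402 on the TGF-beta1 array, 427 on the hypoxia array and 410 on the untreated array. A gene is called above the floor in a comparison when its brighter array reached that array's median gene value, and it is counted as higher or lower when the difference was at least 1.5-fold (0.585 on the log2 scale). As a gauge of measurement error, the log2 differences of features that read the same gene scattered with an SD of 0.31 between TGF-beta1 and untreated (699 genes above the floor), 0.34 between hypoxia and untreated (689 genes) and 0.39 between TGF-beta1 and hypoxia (700 genes). This SD leaves out the variation between cultures. Of the markers of the line's lineage, 6 of 7 were above the median on all 3 arrays, among them VIM, SPARC and RUNX2, while ALPL, the alkaline phosphatase of mature osteoblasts, was at 71.9 on the TGF-beta1 array, 63.4 on the hypoxia array and 68.8 on the untreated array. Of 5 blood and immune markers 1, CD68, was above the median on any array, as were 0 of 2 endothelial markers and 2 of 4 epithelial markers. The epithelial pair was KRT8, at 4193 with TGF-beta1, 8403 under hypoxia and 9761 untreated, and KRT18, at 2850 with TGF-beta1, 4084 under hypoxia and 3604 untreated, while EPCAM and KRT19 were below the median on every array. KRT8 and KRT18 were thus lowest on the TGF-beta1 array, as TIMP1, TIMP3 and MMP14 were. EPCAM was also lowest there, at 111 with TGF-beta1, 170 under hypoxia and 122 untreated. KRT19 went the other way and was highest there, at 83.4 with TGF-beta1, 75.2 under hypoxia and 51.5 untreated. The part of these markers in the TIMP1, TIMP3 and MMP14 results was not tested. Of the 7 lineage markers, 5 were brighter and 2 dimmer with TGF-beta1 than untreated. Among them VIM had 34423 with TGF-beta1, 30847 under hypoxia and 29664 untreated, and CDH11 had 629 with TGF-beta1, 1295 under hypoxia and 1742 untreated.

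Most of the family was dim in these spheres. Of the 36 genes, 9 reached the median gene value on at least 1 array: TIMP1, TIMP2, TIMP3, MMP1, MMP2, MMP14, MMP17, ADAMTS12 and ADAMTS13. On all 3 arrays, 7 of them did, all but MMP17 and ADAMTS12. The remaining 27 genes stayed below it on every array, between 53.3 and 338 on the TGF-beta1 array, 53.8 and 311 on the hypoxia array, and 55.0 and 248 on the untreated array. The plot of intensities by array shows the 9 genes.

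**Figure D1:**
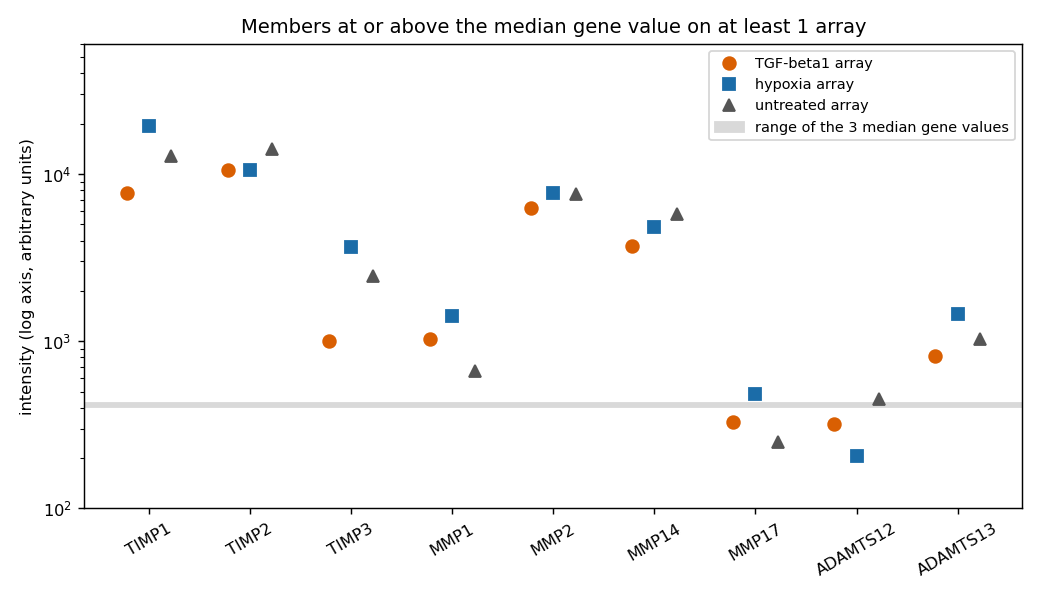
Intensity (log axis, arbitrary units) of the 9 genes that reached the median gene value on at least 1 array, with 1 point per array and the grey band spanning the 3 median gene values (402 to 427). TIMP1 and TIMP3 are lowest on the TGF-beta1 array and highest on the hypoxia array, MMP1 is lowest on the untreated array, and MMP2 lies between 6263 and 7653 on all 3.

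With TGF-beta1, the inhibitors TIMP3 and TIMP1 and the membrane protease MMP14 were lower than in untreated spheres, and the collagenase MMP1 was higher. TIMP3 differed most, with an intensity 2.44-fold lower. Under hypoxia, MMP1, MMP17 and TIMP1 were higher than in untreated spheres, by 2.15-fold, 1.95-fold and 1.53-fold, and ADAMTS12 was 2.17-fold lower. Of these, MMP17 and ADAMTS12 were above the floor only through their brighter array, and TIMP1 lay close to the 1.5-fold limit. Set directly against hypoxia, TGF-beta1 gave lower TIMP3, TIMP1 and ADAMTS13, and no member above the floor was higher. All 3 comparisons are drawn from the same 3 arrays, so no pair of them is independent.

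In numbers, 8 members were above the floor between TGF-beta1 and untreated spheres, and 1 of them was counted as higher with TGF-beta1, against a background of 12.6% of all 7950 genes above the floor. In the other direction 3 of 8 were lower, against 11.5% of all genes, and 4 were within 1.5-fold. Under hypoxia 3 of 9 were higher than in untreated spheres, against 8.64% of 7820 genes, 1 of 9 was lower, against 5.69%, and 5 were within 1.5-fold. For TGF-beta1 minus hypoxia 0 of 8 were higher, against 13.2% of 7941 genes, and 3 of 8 were lower, against 15.3%. With 8 or 9 members above the floor, 1 gene is a large part of such a share, and nothing particular to these genes is read from it. The split of all calls moves with the scaling: higher calls were 52.3% of all calls for TGF-beta1 minus untreated as deposited and 63.2% with the arrays centred on their medians. For hypoxia minus untreated they were 60.3% and 49.7%, and for TGF-beta1 minus hypoxia 46.3% and 62.9%, each as deposited and then centred. Loess centring gave 48.6% for hypoxia minus untreated.

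The median log2 difference over all 36 members was -0.25 for TGF-beta1 minus untreated, against -0.003 over all 14836 genes. Of the members 24 were dimmer and 12 brighter, and of all genes 7458 were dimmer and 7376 brighter. The member median was 0.02 for hypoxia minus untreated, against 0.04 over all genes. Here 17 members were dimmer and 19 brighter, against 6871 and 7965 of all genes. For TGF-beta1 minus hypoxia the member median was -0.33, against -0.03, with 21 members dimmer and 15 brighter, against 7763 and 7070 of all genes. Of the 36 members, 27 lie below the floor on every array, so the medians mostly describe dim values. Between TGF-beta1 and untreated, 28 of 36 members were below the floor, against 6886 of 14836 genes, so the sets differ in brightness. Of those 6886 genes, 19.1% were at least 1.5-fold dimmer with TGF-beta1 and 13.9% brighter. Nothing particular to the family is read from the medians. The plot of all log2 differences by subfamily shows which differences belong to bright genes, and the histogram of all genes above the floor shows where those members fall.

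**Figure D2:**
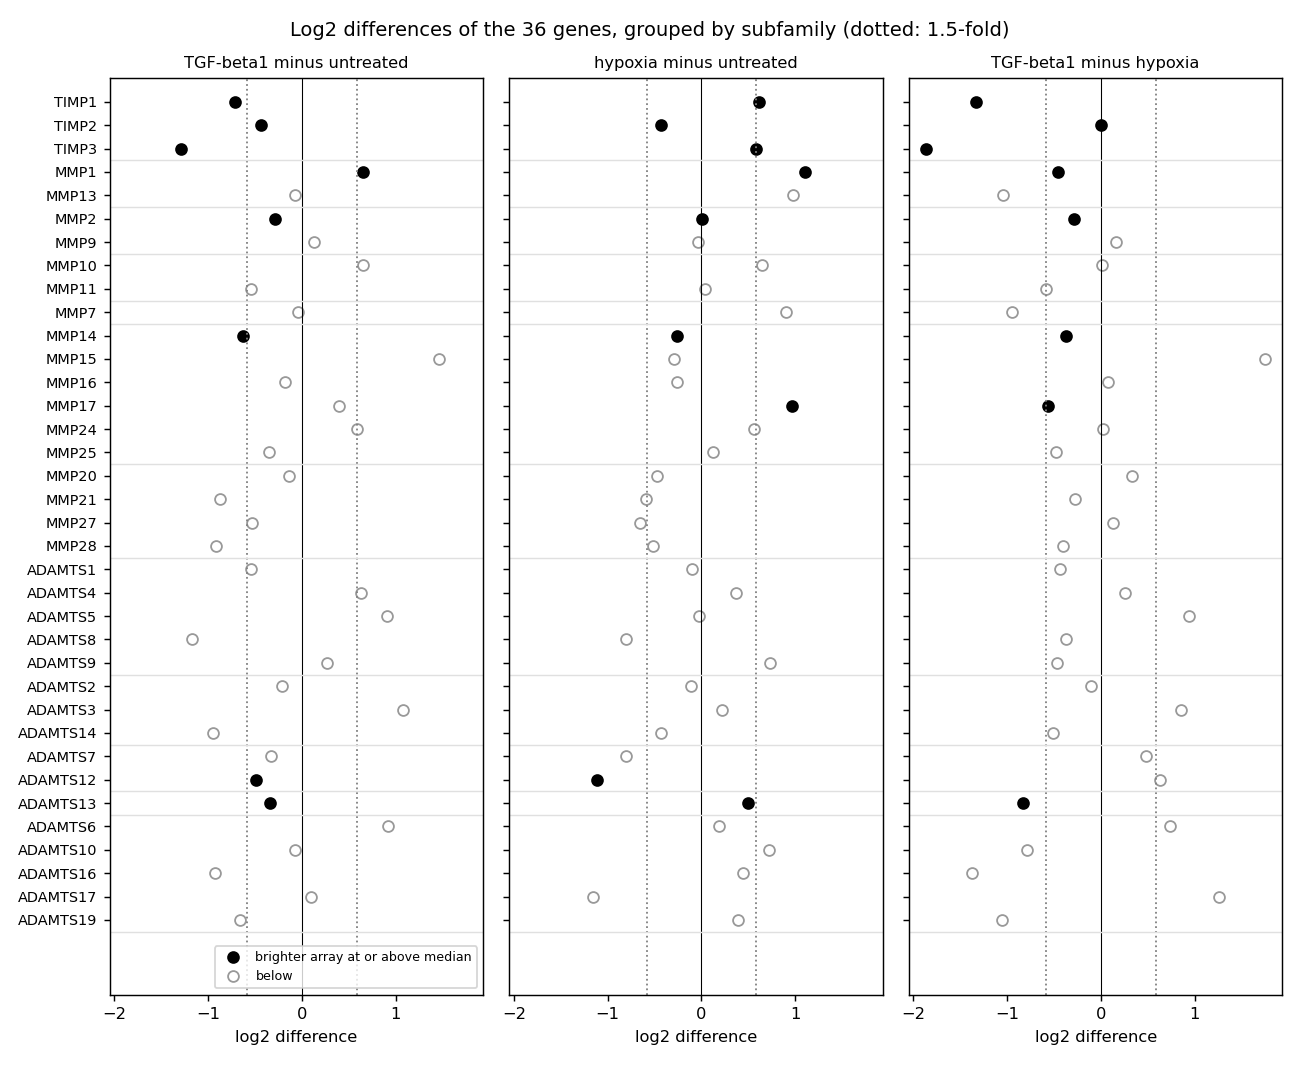
Log2 differences of all 36 genes in the 3 comparisons, 1 row per gene, with subfamilies separated by thin lines, filled points for genes above the floor, open points for genes below it and dotted lines at 1.5-fold. Most of the points far from 0 are open, such as MMP15 at 1.46 for TGF-beta1 minus untreated, while TIMP3 at -1.29 is filled.

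**Figure D3:**
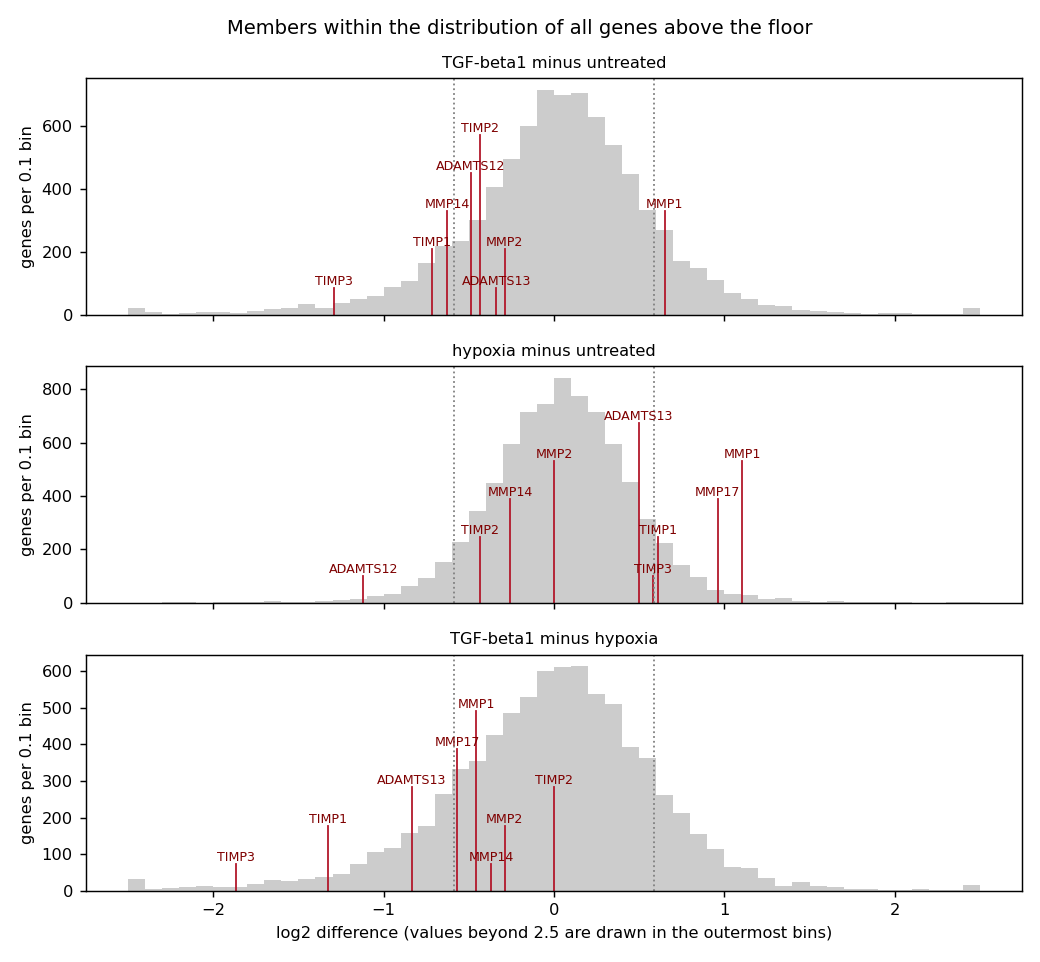
Histograms of the log2 differences of all genes above the floor in each comparison (0.1-wide bins, vertical axis in genes per bin), with a red line at each member above the floor and dotted lines at 1.5-fold. TIMP3 stands in the lower tail of the TGF-beta1 minus untreated and TGF-beta1 minus hypoxia panels, and ADAMTS12 and MMP1 stand in opposite tails of the hypoxia minus untreated panel.

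TIMP1, TIMP2 and TIMP3, the inhibitors, were all above the floor on every array, and all 3 were dimmer with TGF-beta1 than untreated. TIMP3 is the TIMP that stays bound to the extracellular matrix and that also inhibits ADAM17 and the aggrecanases. It had an intensity of 1010 on the TGF-beta1 array and 3686 on the hypoxia array, against 2468 on the untreated array. The log2 difference was -1.29 for TGF-beta1 minus untreated, which 2.09% of genes above the floor matched or exceeded downward. For hypoxia minus untreated it was 0.58 (1.49-fold), just inside the 1.5-fold limit, so TIMP3 is not among the genes counted as higher. The log2 difference of TGF-beta1 minus hypoxia was -1.87, or 3.65-fold lower, and 1.01% of genes above the floor lay as low.

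TIMP1, a soluble inhibitor that also binds the precursor of MMP9 and has growth-promoting activity, showed the same order of arrays. It had an intensity of 7753 on the TGF-beta1 array and 19464 on the hypoxia array, against 12746 on the untreated array. TIMP1 was thus 1.64-fold lower with TGF-beta1 (log2 difference -0.72) and 1.53-fold higher under hypoxia (0.61), each relative to untreated spheres. The hypoxia value lies close to the limit, and it was no longer counted under median centring (0.57), quantile normalization (0.58) or loess centring (0.58). The direct log2 difference between TGF-beta1 and hypoxia was -1.33, with 2.77% of genes above the floor as low.

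TIMP2, which takes part in the activation of pro-MMP2 at the cell surface, did not follow that order. Its intensity was 10528 with TGF-beta1 and 10522 under hypoxia, against 14205 in untreated spheres. The treated arrays thus had nearly the same value, with a log2 difference of 0.001 between them, and both were 1.35-fold lower than the untreated array, within the 1.5-fold limit. TIMP1 lies inside the synapsin gene SYN1 and TIMP3 inside SYN3, which are transcribed from the same loci. SYN1 was at 206 with TGF-beta1, 384 under hypoxia and 355 untreated, and SYN3 at 89.2 with TGF-beta1, 125 under hypoxia and 141 untreated, all below the median gene value. Whether signal is shared between overlapping genes was not tested.

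The sequences upstream of TIMP1 and TIMP3 are shown because these inhibitors had the same order over the 3 arrays. They are the 250 bases before the RefSeq gene start, on the gene's strand in the build GRCh38.p14. Capitals mark matches, on either strand, to the AP-1 heptamer TGANTCA, its variant TGAGTAA, the hypoxia response core ACGTG, the core TTGGTGA of the TGF-beta inhibitory element and the GC box core GGGCGG. No marked matches overlap in these windows. Promoters of 21 of the 36 members were in the RefSeq table used, and those of MMP1, MMP2, MMP13, MMP17 and TIMP2 were not among them.
TIMP1, chrX:47582186-47582435, plus strand: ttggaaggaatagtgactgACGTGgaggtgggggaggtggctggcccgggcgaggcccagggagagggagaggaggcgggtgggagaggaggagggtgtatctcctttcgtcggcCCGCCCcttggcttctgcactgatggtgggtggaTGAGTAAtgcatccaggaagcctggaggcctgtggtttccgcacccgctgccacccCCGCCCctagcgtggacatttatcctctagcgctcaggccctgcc
TIMP3, chr22:32801455-32801704, plus strand: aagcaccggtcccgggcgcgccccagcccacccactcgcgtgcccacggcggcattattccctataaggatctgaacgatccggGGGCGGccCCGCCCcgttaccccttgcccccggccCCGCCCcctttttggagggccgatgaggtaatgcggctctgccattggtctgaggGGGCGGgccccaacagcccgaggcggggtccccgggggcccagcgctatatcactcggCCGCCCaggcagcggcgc

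In TIMP1 the ACGTG match starts at position -231 from the gene start, the TGAGTAA match at -101, and the GC box matches at -135 and -45. TIMP3 held 5 GC box matches and none of the other motifs. Over all 35116 promoter windows of this length, 18.5% held ACGTG, 2.21% held TGAGTAA, 42.6% held GGGCGG, 6.57% held TGANTCA and 2.79% held TTGGTGA. Among the 21 members, 9 held ACGTG, 1 held TGAGTAA, 15 held GGGCGG, 4 held TGANTCA and 1 held TTGGTGA. These matches are letters in a window and were not read as binding sites.

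MMP1 and MMP13 are collagenases, which cut triple-helical fibrillar collagen, the main protein of bone matrix. MMP1, the interstitial collagenase, had an intensity of 1035 with TGF-beta1 and 1420 under hypoxia, against 660 in untreated spheres, so both treated arrays were brighter. The log2 difference was 0.65 for TGF-beta1 minus untreated (1.57-fold), and 10.3% of genes above the floor were at least as high. For hypoxia minus untreated it was 1.11, and 1.21% were at least as high. MMP13, a collagenase of cartilage and bone that is also a product of osteoblasts, had 151 with TGF-beta1 and 311 under hypoxia, against 158 untreated. MMP13 stayed below the median gene value on all arrays, so its log2 difference of 0.97 for hypoxia minus untreated rests on dim values and was not counted.

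MMP2 and MMP9 are the gelatinases, which degrade denatured collagen and the collagen of basement membranes. MMP2 was bright on all 3 arrays and differed little, at 6263 with TGF-beta1 and 7653 under hypoxia, against 7647 untreated. Its log2 difference from untreated was -0.29 with TGF-beta1 and 0.001 under hypoxia. MMP9 was dim on all of them, at 99.3 with TGF-beta1, 88.7 under hypoxia and 91.1 untreated. No difference of either gelatinase reached 1.5-fold.

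Among the 6 membrane-anchored MMPs, MMP14 and MMP17 were above the floor. MMP14, a transmembrane collagenase that activates pro-MMP2 together with TIMP2, had 3715 with TGF-beta1 and 4799 under hypoxia, against 5736 untreated, so both treated arrays were dimmer. It was 1.54-fold lower with TGF-beta1 (log2 difference -0.63), and with the arrays centred on their medians the difference of -0.55 no longer reached the limit. MMP17, which is held in the membrane by a lipid anchor, had 327 with TGF-beta1 and 484 under hypoxia, against 248 untreated. Only the hypoxia array reached the median gene value, and the log2 difference of 0.96 from untreated was matched by 1.88% of genes above the floor. With a floor at the 60th percentile, or with both arrays required at the median, MMP17 was not counted. Of the other 4, MMP15 had 182 with TGF-beta1 and 53.8 under hypoxia, against 65.8 untreated, and MMP16, MMP24 and MMP25 lay between 65.7 and 128 on all arrays.

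The gap between the log2 differences of a pair of genes does not depend on the scaling of an array by a constant. The log2 difference of MMP1 exceeded that of TIMP1 by 1.37 on the log2 scale for TGF-beta1 minus untreated and by 0.49 for hypoxia minus untreated. In the activation complex of MMP14, TIMP2 and MMP2, the gap of MMP14 minus TIMP2 was -0.19 with TGF-beta1 and 0.18 under hypoxia, and that of MMP2 minus TIMP2 was 0.14 with TGF-beta1 and 0.43 under hypoxia, each against untreated. The gap of MMP14 minus TIMP3 was 0.66 with TGF-beta1 and -0.84 under hypoxia, so its sign differed between the treated arrays. These are differences of mRNA signals and give no ratio of proteins.

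Of the ADAMTS genes, ADAMTS12 and ADAMTS13 were above the floor. ADAMTS12, which cleaves cartilage oligomeric matrix protein (COMP), had 320 with TGF-beta1 and 206 under hypoxia, against 448 untreated, so the untreated array alone reached the median gene value. Its log2 difference was -0.49 for TGF-beta1 minus untreated and -1.12 for hypoxia minus untreated, and 0.614% of genes above the floor were as low as the second value. For TGF-beta1 minus hypoxia it was 0.63 (1.55-fold), not counted because neither of these arrays reached the median gene value. Its relative ADAMTS7, which has the same substrate, was below the floor at 165 with TGF-beta1 and 119 under hypoxia, against 207 untreated. Both COMP-cleaving genes were thus dimmest under hypoxia. With a floor at the 60th percentile, or with both arrays required at the median, ADAMTS12 was not counted.

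ADAMTS13, the protease that cuts von Willebrand factor, is known mainly from liver stellate cells. It had 815 with TGF-beta1 and 1454 under hypoxia, against 1030 untreated, the order also seen for TIMP1 and TIMP3. Neither treated array differed from the untreated one by 1.5-fold (log2 difference -0.34 with TGF-beta1 and 0.50 under hypoxia), but they differed from each other by -0.84, or 1.78-fold. ADAMTS13 has 2 features, and these differed by -0.14 and -0.54 for TGF-beta1 minus untreated, 0.53 and 0.47 for hypoxia minus untreated, and -0.67 and -1.003 for TGF-beta1 minus hypoxia. The gene overlaps REXO4, which had 1875 with TGF-beta1, 1779 under hypoxia and 1674 untreated.

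The proteoglycan-cleaving ADAMTS1, ADAMTS4, ADAMTS5, ADAMTS8 and ADAMTS9, which act on aggrecan and versican, were all below the floor, between 53.3 and 184 on the 3 arrays. The aggrecanase ADAMTS5 had 163 with TGF-beta1 and 84.8 under hypoxia, against 86.5 untreated, and ADAMTS8 had 64.4 with TGF-beta1 and 83.5 under hypoxia, against 145.7 untreated. ADAMTS4 lay between 69.2 and 107. The procollagen N-proteinases ADAMTS2, ADAMTS3 and ADAMTS14, which remove the N-terminal propeptides of fibrillar procollagens, lay between 58.7 and 248. ADAMTS3 had 124 with TGF-beta1 and 68.4 under hypoxia, against 58.7 untreated, and ADAMTS14 had 129 with TGF-beta1 and 183 under hypoxia, against 248 untreated. The features of ADAMTS2 disagreed in direction under hypoxia, at -0.49 and 0.26.

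The remaining ADAMTS genes, ADAMTS6, ADAMTS10, ADAMTS16, ADAMTS17 and ADAMTS19, lay between 55.6 and 338. ADAMTS6 and ADAMTS10 are known for roles in fibrillin microfibrils. ADAMTS6 was nearest to the median gene value, at 338 with TGF-beta1 and 204 under hypoxia, against 178 untreated, and ADAMTS17 had 133 with TGF-beta1 and 55.6 under hypoxia, against 124 untreated. Among the dim MMPs, the stromelysin MMP11, which is activated inside the cell by furin, had 91.8 with TGF-beta1 and 138 under hypoxia, against 134 untreated. MMP20, the protease of tooth enamel, MMP21, MMP27 and MMP28 were dimmer on both treated arrays than on the untreated array, by log2 differences between -0.92 and -0.14 with TGF-beta1 and between -0.66 and -0.47 under hypoxia. The MMP28 features differed in size, at -1.39 and -0.46 with TGF-beta1. MMP28 overlaps C17orf50, which had 363 with TGF-beta1 and 295 under hypoxia, against 749 untreated. Of 28 members below the floor between TGF-beta1 and untreated, 6 were at least 1.5-fold brighter with TGF-beta1, against 13.9% of all 6886 genes below the floor, and 6 were dimmer, against 19.1%. Of 27 below the floor between hypoxia and untreated, 5 were brighter under hypoxia, against 14.1% of 7016 genes, and 5 were dimmer, against 12.3%. These values were not counted, because without detection calls it is unknown whether they exceed background.

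A block of 9 neighbouring MMP genes lies on chromosome 11, in the order MMP7, MMP20, MMP27, MMP8, MMP10, MMP1, MMP3, MMP12 and MMP13. Values were read for 6 of them, and 1, MMP1, was above the floor. Under hypoxia 4 of the 6 were at least 1.5-fold brighter than untreated. The share was 11.2% of all 14836 genes with no filter on low values, and 14.1% of the 7016 genes below the floor. The log2 differences were 1.11 for MMP1, 0.97 for MMP13, 0.90 for MMP7 and 0.64 for MMP10. For genes below the floor, features of the same gene scattered with an SD of 0.51 in this comparison. The enamel gene MMP20 (-0.47) and MMP27 (-0.66) went the other way. With TGF-beta1, MMP1 (0.65) and MMP10 (0.65) were brighter and the other 4 were dimmer, with MMP7 and MMP13 within 0.07. MMP7, which lacks the hemopexin domain, had 53.5 with TGF-beta1 and 103 under hypoxia, against 55.0 untreated. MMP10, a stromelysin, had 161 with TGF-beta1 and 160 under hypoxia, against 103 untreated. The plot of the chromosome 11 genes shows that MMP1 alone stands above the median band. Of the 4 genes brighter under hypoxia, 3 were thus below the floor, and nothing particular to the block is read from them.

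**Figure D4:**
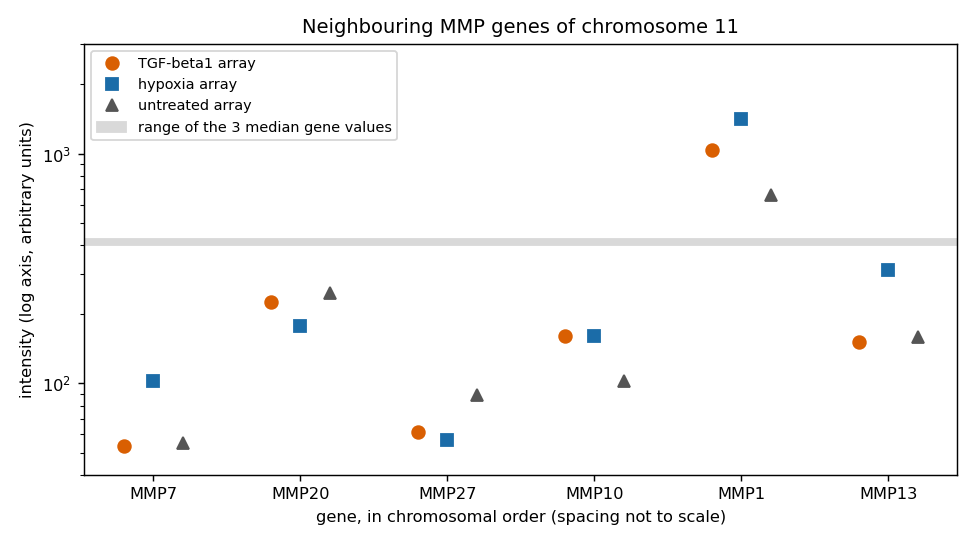
Intensity (log axis, arbitrary units) of the 6 chromosome 11 MMP genes with values, in chromosomal order (spacing not to scale), with 1 point per array and the median gene values as a grey band. MMP7 (103), MMP1 (1420) and MMP13 (311) are highest on the hypoxia array, and of the 6 only MMP1 stands above the band.

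Matches to the AP-1 heptamer, a motif known from several MMP promoters, were found upstream of 4 members with a promoter in the table, and 3 of these are in the chromosome 11 block. They are shown with the heptamer in capitals and flanking bases, 60 bases each, from RefSeq in GRCh38.p14, all on the minus strand of the chromosome and written on the gene's strand.
MMP7, chr11:102530775-102530834, minus strand: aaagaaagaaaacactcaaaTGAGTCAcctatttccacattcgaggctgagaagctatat
MMP10, chr11:102780656-102780715, minus strand: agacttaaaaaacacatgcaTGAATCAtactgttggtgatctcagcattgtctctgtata
MMP20, chr11:102625405-102625464, minus strand: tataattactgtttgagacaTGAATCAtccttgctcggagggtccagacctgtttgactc
ADAMTS12, chr5:33892035-33892094, minus strand: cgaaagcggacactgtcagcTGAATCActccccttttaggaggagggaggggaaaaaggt

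The heptamer starts at position -67 from the gene start in both MMP7 and MMP10, at -112 in MMP20 and at -84 in ADAMTS12. Of these 4, MMP7 has TGAGTCA, and the other 3 have TGAATCA. MMP10 also holds the TGF-beta inhibitory element core TTGGTGA, at position -55. Under hypoxia MMP7 and MMP10 were brighter than untreated, and MMP20 and ADAMTS12 were dimmer. MMP7, MMP10 and MMP20 were below the floor on every array, and no link between the heptamer and these values was tested.

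Genes that act with the family were read from 5 lists. Over all genes above the floor, 12.6% were higher and 11.5% lower with TGF-beta1 than untreated. Under hypoxia 8.64% were higher and 5.69% lower. Each list has few genes above the floor, and nothing particular to a list is read from its counts. Of 5 ADAM proteases above the floor, membrane-anchored relatives of ADAMTS, 1 was higher with TGF-beta1 and 0 lower, and 0 of 5 were higher or lower under hypoxia. ADAM19 had 2097 with TGF-beta1 and 875 under hypoxia, against 914 untreated, ADAM23 had 971 with TGF-beta1 and 562 under hypoxia, against 778 untreated, and the sheddase ADAM10 had 1015 with TGF-beta1 and 1096 under hypoxia, against 1233 untreated. Of the ADAMTS-like proteins and papilin, which lack a protease domain, 1 was higher and 1 lower of 4 with TGF-beta1, and 2 of 3 were higher under hypoxia. ADAMTSL4, a protein of fibrillin microfibrils, had 626 with TGF-beta1 and 1699 under hypoxia, against 754 untreated, and THSD4 had 779 with TGF-beta1 and 982 under hypoxia, against 556 untreated. ADAMTSL5 had 473 with TGF-beta1 and 344 under hypoxia, against 264 untreated, so it was above the floor only through the TGF-beta1 array. PAPLN had 1235 with TGF-beta1 and 1478 under hypoxia, against 1897 untreated.

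Among activators and other inhibitors, 1 of 10 above the floor was higher with TGF-beta1 and 2 were lower, and 0 of 9 differed by 1.5-fold under hypoxia. SPOCK1, a testican proteoglycan, had 1222 with TGF-beta1 and 219 under hypoxia, against 292 untreated. It was above the floor only through the TGF-beta1 array. LRP1, the endocytic receptor that clears MMPs and TIMPs, had 1666 with TGF-beta1 and 3265 under hypoxia, against 3321 untreated. The procollagen C-proteinase enhancer PCOLCE had 17793 with TGF-beta1 and 23384 under hypoxia, against 30847 untreated, and the C-proteinase BMP1 had 3226 with TGF-beta1 and 4660 under hypoxia, against 3800 untreated. The membrane-anchored MMP inhibitor RECK, named after its values were seen, was below the floor at 100.1 with TGF-beta1 and 178 under hypoxia, against 289 untreated.

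Of the matrix proteins that these enzymes cut, 1 of 9 above the floor was higher with TGF-beta1 and 3 were lower, and 1 of 9 was higher under hypoxia. Tenascin C (TNC) had 7358 with TGF-beta1 and 12924 under hypoxia, against 16180 untreated. Fibronectin (FN1) had 17679 with TGF-beta1 and 7844 under hypoxia, against 9906 untreated. Osteopontin (SPP1) had 214 with TGF-beta1 and 745 under hypoxia, against 473 untreated. Between TGF-beta1 and untreated, SPP1 was above the floor only through the untreated array. Of the transcription factors with known sites in MMP promoters, 1 of 12 above the floor was higher with TGF-beta1 and 2 were lower, and 1 of 13 was higher under hypoxia. The AP-1 subunit FOSB had 470 with TGF-beta1 and 1214 under hypoxia, against 338 untreated. Between hypoxia and untreated, FOSB was above the floor only through the hypoxia array. FOSL1, another AP-1 subunit, had 13211 with TGF-beta1 and 12186 under hypoxia, against 8472 untreated. ETS2 had 697 with TGF-beta1 and 1404 under hypoxia, against 1681 untreated, and TWIST1 1987 with TGF-beta1 and 3205 under hypoxia, against 3632 untreated. These levels stand beside those of the family as values, and no link between them was tested.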

How the data were processed

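Total RNA of 3 MNNG/HOS sphere cultures was labelled with Cy3 and hybridised to NimbleGen arrays, per the labels' protocols. The authors deposited one intensity per feature on a linear scale, for 38572 transcript features. The background correction, probe summary, normalization and build were not given in the sources used here. Precision is limited by having 1 array per group.

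Gene names came from the platform annotation, updated through Entrez identifiers (15623), or from an accession match to RefSeq of GRCh38.p14 (593), and 22356 stayed unnamed. Values were log2 transformed without a pseudocount, and a gene's value is the mean over its features. With 1 array per group no test was run. Members, lists and thresholds were chosen with earlier results of these data known. Full values were planned for all TIMPs, collagenases and gelatinases and for members counted in any comparison, and for the 2 largest differences per related list. The other dim members and RECK were chosen after their values were seen. Software was Python 3.11.15, numpy 2.4.6, pandas 2.3.3 and statsmodels 0.14.6.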

Additional observations from a re-analysis of the deposited data

How the results depend on the processing

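No paired analysis was possible because each group has 1 array. The log2 differences of the 11 fully described members, 33 in all, were recomputed under 7 alternatives. In all 231 cases they moved by less than the SD between features of a gene. For a member below the floor in a comparison, the larger SD of genes below the floor was used. Those counted as higher or lower kept their sign. Of these members only ADAMTS13 has more than 1 feature, and it has 2. Taking the median over features therefore could not move any of these differences, and taking the brightest feature could move ADAMTS13 only. Leaving out the update of gene names changed none of them, and median centring shifts every gene of a comparison by 1 constant. The 231 cases are thus no measure of stability.

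Counts of members moved most with the filter. With no filter on low values dim genes enter, and of the 36 members 7 were higher and 9 lower for TGF-beta1 minus untreated, against 13.2% and 15.0% of all genes. For hypoxia minus untreated 8 were higher and 6 lower, against 11.2% and 8.80%, and for TGF-beta1 minus hypoxia 6 were higher and 9 lower, against 13.5% and 17.5%. At 2-fold, 0 of 8 were higher and 1, TIMP3, was lower for TGF-beta1 minus untreated, against 3.25% and 3.86% of genes above the floor. Of 9 for hypoxia minus untreated 1, MMP1, was higher and 1, ADAMTS12, lower, against 1.65% and 0.985%. For TGF-beta1 minus hypoxia 0 of 8 were higher and 2 lower, against 3.26% and 5.73%, without ADAMTS13. With a floor at the 60th percentile, 2 of 7 members were higher and 0 lower for hypoxia minus untreated, against 7.54% and 4.88% of genes. With both arrays at or above the median, 2 of 7 were again higher and 0 lower, against 6.59% and 3.91%. ADAMTS12 and MMP17 were not counted in either case. The median over the 8 members above the floor was -0.46 for TGF-beta1 minus untreated, against 0.05 over all genes above the floor. Over 9 members it was 0.50 for hypoxia minus untreated, against 0.05. Over 8 members it was -0.51 for TGF-beta1 minus hypoxia, against 0.008. With so few members, nothing particular to the family is read from these medians. Over all 36 members, the median was -0.14 for TGF-beta1 minus untreated under loess centring, against -0.25 as deposited, and -0.21 for TGF-beta1 minus hypoxia under median centring, against -0.33 as deposited. Loess centring subtracts the trend of the difference over mean intensity, fitted to all genes, so its shift can differ between dim and bright genes. Median centring adds 1 constant to the difference of every gene in a comparison, so the median of all genes moved with the member median. Median centring put the median of all genes at 0.09 for TGF-beta1 minus hypoxia, against -0.03 as deposited. With no detection calls, whether dim values exceed background is unknown.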
